A study of Mus musculus with 43 samples.

Results

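The 10 genes described here mark the surface of cells on the way from fibroblast to pluripotent stem cell, and their mRNA was followed along that path: Thy1, Cd44, Cd24a, Nt5e, Icam1, Pecam1, Cd9, Fut4, Alpl and Mme. They were chosen by symbol, and each had a single entry in all 5 deposited expression tables, which makes 10 of the 38964 genes that the tables share with a single entry. Thy1, Cd44, Nt5e and Mme are surface proteins used to recognise mesenchymal cells, Cd24a and Icam1 mark intermediate and late stages of reprogramming, and Pecam1, Cd9, Alpl and the product of Fut4 are classical features of mouse pluripotent cells. In reprogramming with Oct4, Klf4, Sox2 and Myc, fibroblasts are known to lose Thy1 early, then to gain alkaline phosphatase and the Lewis x carbohydrate antigen, and late to gain the genes of the pluripotent network. Sorting for such markers is the usual way to enrich cells that are on course, because most fibroblasts of a culture otherwise stall. Mbd3 and Gatad2a, the genes altered here, encode subunits of NuRD, a complex that remodels nucleosomes and removes acetyl groups from histones.

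Poly(A) RNA was sequenced from 43 mouse libraries, 34 of them along reprogramming courses of 4 cell systems and 9 of a set on Myc, its controls included. The systems with altered NuRD genes were Mbd3f/- (a floxed allele of Mbd3 over a null allele) and Gatad2a-/-, called the depleted systems below. The others were WT-1 and WT-2, both wild type for these genes, and WT-2 was isogenic to Gatad2a-/-. All 4 carried the doxycycline-inducible OKSM cassette, that is Oct4, Klf4, Sox2 and Myc. Secondary mouse embryonic fibroblasts (MEF) of each system were induced with doxycycline in serum and LIF at 5% oxygen. Inhibitors of MEK and GSK3 were added with serum replacement medium on day 3.5 per the design text, or 48 hours after induction per the growth protocol. From day 3 on, the induced cells, like the induced pluripotent lines derived from them (iPSC) and the embryonic stem cells (ES), lay on human foreskin fibroblasts that had been irradiated. The day of a course can thus not be told apart from its medium and feeders. The depleted systems were sampled as MEF, on each of days 1 to 8 and as iPSC, and the wild-type systems as MEF, on days 2, 4, 6 and 8 and as iPSC. ES cells were sampled for Mbd3f/- and, as the V6.5 line, for WT-1.

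Every stage of a system was 1 library, so the 2 systems of a class served as its replicates and each was deposited as a table of its own. With the level of each system taken out, the p-values measure how far the 2 systems of a class differed in their changes between stages. This spread was pooled over all stages and classes of a fit, with 10 residual degrees of freedom in 24 libraries and 9 in 20. Serial libraries of the same courses supply it, and nothing in the labels gives separate cultures of 1 system. Values are FPKM, fragments counted per transcript length and per mapped fragments of the library. Between 12262 and 16888 genes reached 1 FPKM in a library. The absolute depth is unknown; read from the steps of low values, the depth of a library relative to the first MEF of its table was 0.438 (Gatad2a-/- day 6) to 1.37. All 10 fibroblast markers examined were at 1 FPKM or more in every MEF library, and all 10 pluripotency markers in every iPSC and ES library. In WT-2 only 1 of those 10 reached 1 FPKM on any of days 2 to 8, against 3 to 8 in WT-1. The altered genes gave no sharp check of the labels. Mbd3 was at 37.5 FPKM in Mbd3f/- MEF, against 79.4 FPKM in WT-1 MEF and 53.0 FPKM in WT-2 MEF. Gatad2a was at 10.2 FPKM in Gatad2a-/- MEF and 13.4 FPKM in Gatad2a-/- iPSC, against 10.5 FPKM in WT-2 MEF and 38.5 FPKM in WT-2 iPSC. The labels do not say which part of Gatad2a is deleted, and transcript from the rest of the gene is still counted.

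**Figure D1:**
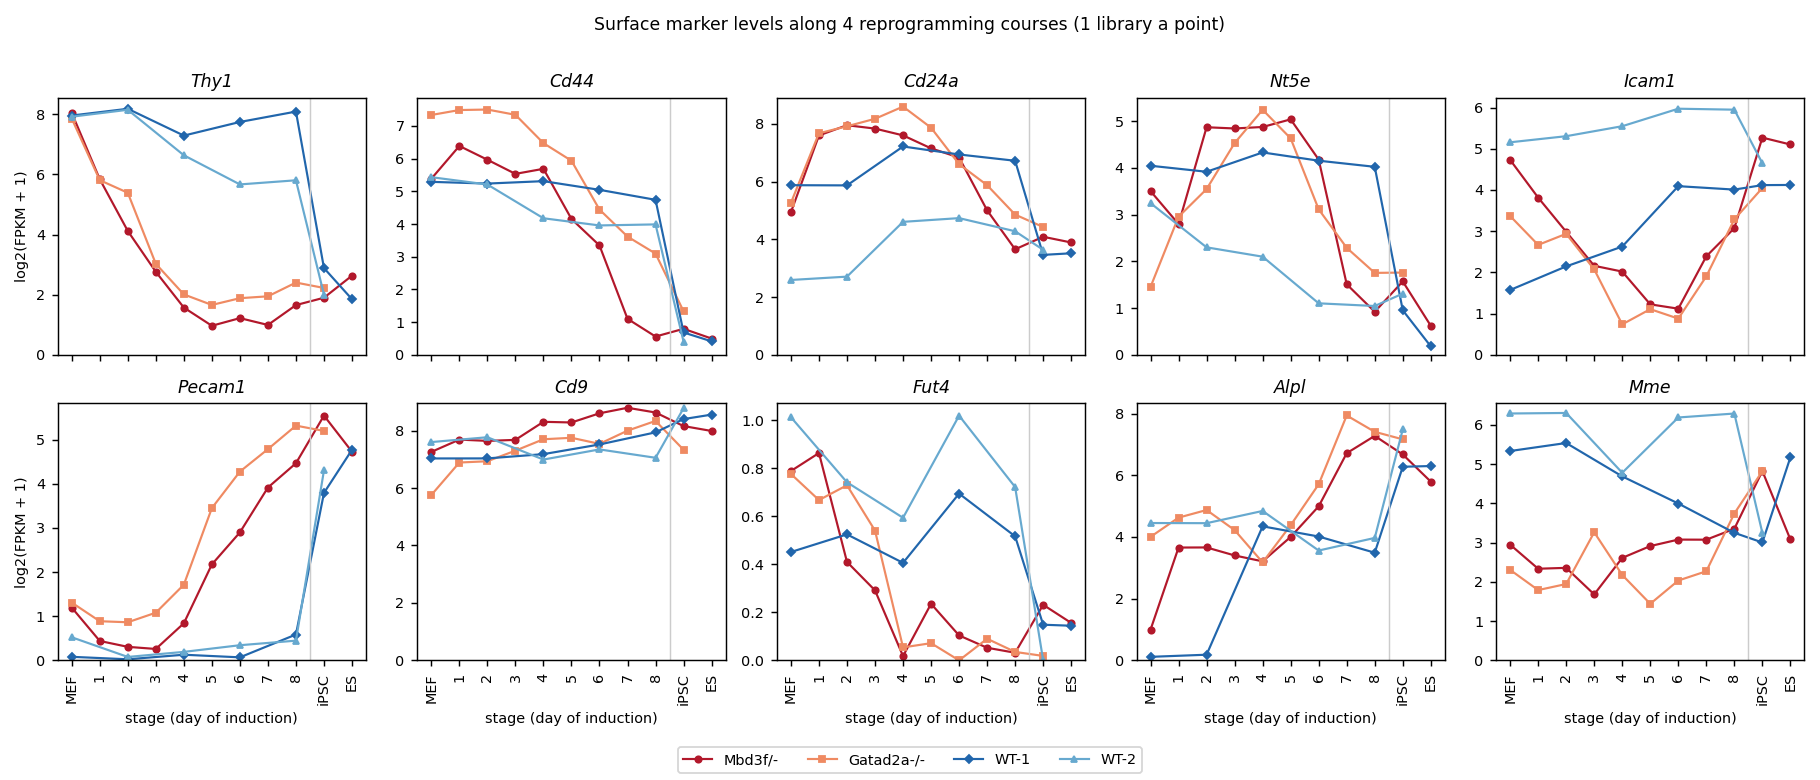
Level of each marker, as log2(FPKM + 1), at each stage of the 4 systems, with 1 library a point; the grey line separates the days of induction from the established lines, and each panel has its own vertical scale that starts at 0. Thy1 is low from day 3 in Mbd3f/- and Gatad2a-/- and high to day 8 in WT-1 and WT-2, whereas Icam1 is lowest on days 4 to 6 in the depleted systems.

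Over the whole path, from MEF to iPSC, 3 of the 10 markers rose and 4 fell in the mean of the 4 systems, while 53% of the 20296 genes tested passed, 29% upward and 23.9% downward (limma with Benjamini-Hochberg adjustment, 24 libraries, system as a block). The share among the members is therefore not far from that of all genes. The median change of the 10 was -0.45 on the log2(FPKM + 1) scale, against 0.14 for all genes tested. The markers that fell were Thy1, Cd44, Nt5e and Fut4, and those that rose were Pecam1, Alpl and Cd9. Fut4 was tested only because of WT-2, so its place among the 4 is a description. Cd24a, Icam1 and Mme did not pass. In whole cultures such as these, fewer cells of a type and less RNA per cell cannot be told apart.

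Thy1 encodes a glycolipid-anchored protein of fibroblasts, T cells and neurons (ENSMUSG00000032011, chr9:44043384-44048579, plus strand, GRCm38). It was the most abundant member in the MEF of every system, with 263 FPKM in Mbd3f/- and 231 FPKM in Gatad2a-/-, against 247 FPKM in WT-1 and 241 FPKM in WT-2. In Mbd3f/- it was at 56.3, 16.4, 5.78, 1.97, 0.956, 1.33, 0.993 and 2.15 FPKM on days 1 to 8 in turn. In Gatad2a-/- the same days gave 55.0, 40.9, 7.15, 3.03, 2.16, 2.69, 2.86 and 4.29 FPKM. Both depleted courses had thus reached the range of their iPSC (2.73 FPKM in Mbd3f/-, 3.67 FPKM in Gatad2a-/-) by day 4. On days 2, 4, 6 and 8 WT-1 stood at 289, 155, 213 and 271 FPKM and WT-2 at 283, 98.4, 49.8 and 54.9 FPKM. From day 2 on the lowest wild-type value was 49.8 FPKM (WT-2 day 6) and the highest depleted value 40.9 FPKM (Gatad2a-/- day 2). These levels are set across tables that were normalized separately, and the share of all genes separated in this way was not taken. The wild-type iPSC were at 6.39 FPKM in WT-1 and 3.01 FPKM in WT-2. Thy1 fell by 5.69 on the log2 scale from MEF to iPSC over the 4 systems (SE 0.35, limma adjusted p = 5.5e-08).

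Cd44, the receptor for hyaluronan, followed later (ENSMUSG00000005087, chr2:102811141-102901665, minus strand). In Mbd3f/- it was at 40.8 FPKM in MEF and at 82.7, 61.5, 45.3, 50.6, 16.8, 9.16, 1.15 and 0.475 FPKM on days 1 to 8, then 0.738 FPKM in iPSC. In Gatad2a-/- it was at 160.4 FPKM in MEF and at 178, 180.1, 161, 87.9, 60.2, 20.7, 11.3 and 7.55 FPKM on those days, then 1.52 FPKM in iPSC. The main decline lay between days 4 and 7 in both. In WT-1 it was at 38.1 FPKM in MEF, 36.7, 38.7, 32.0 and 25.7 FPKM on days 2, 4, 6 and 8, and 0.608 FPKM in iPSC. In WT-2 the values were 42.2 FPKM in MEF, 36.0, 17.1, 14.5 and 14.9 FPKM on those days, and 0.324 FPKM in iPSC. The wild-type courses kept more than 10 FPKM to day 8 and lost the transcript only in the established line. Over the 4 systems Cd44 fell by 5.06 on the log2 scale from MEF to iPSC (SE 0.30, limma adjusted p = 4.5e-08). A snRNA gene, Gm23731, overlaps Cd44 in the annotation.

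Nt5e encodes the ecto-5'-nucleotidase CD73, which turns extracellular AMP into adenosine (ENSMUSG00000032420, chr9:88327197-88372092, plus strand). It passed through a maximum on the middle days of both depleted systems. In Mbd3f/- it was at 10.3 FPKM in MEF, 5.95 FPKM on day 1, 28.2, 27.7, 28.3 and 31.8 FPKM on days 2 to 5, 17.1 FPKM on day 6, 1.85 FPKM on day 7 and 0.895 FPKM on day 8. In Gatad2a-/- it was at 1.74 FPKM in MEF, 6.75, 10.7, 22.1, 36.8, 23.8, 7.65, 3.89 and 2.37 FPKM on days 1 to 8. The peak stood on day 5 in Mbd3f/- and on day 4 in Gatad2a-/-. WT-1 kept 14.1 to 19.1 FPKM from MEF to day 8 and had 0.936 FPKM in iPSC. WT-2 was at 8.48 FPKM in MEF, 3.92, 3.29, 1.15 and 1.06 FPKM on days 2, 4, 6 and 8, and 1.48 FPKM in iPSC. From MEF to iPSC Nt5e fell by 1.66 on the log2 scale (SE 0.55, limma adjusted p = 0.0215), but in Gatad2a-/- alone it was at 2.39 FPKM in iPSC and 1.74 FPKM in MEF. The call was lost without Mbd3f/- (-1.10, adjusted p = 0.273) and without WT-1 (-1.37, adjusted p = 0.0832).

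Mme, the neutral endopeptidase neprilysin or CD10, cuts peptides at the cell surface (ENSMUSG00000027820, chr3:63241537-63386030, plus strand). Its change from MEF to iPSC ran in opposite directions in the 2 classes. The class difference in its change from MEF did not pass on days 2, 4, 6 or 8 (limma adjusted p at least 0.119). Mbd3f/- had 6.73 FPKM in MEF, 2.21 to 9.22 FPKM on days 1 to 8 and 27.4 FPKM in iPSC, and Gatad2a-/- had 3.95 FPKM in MEF, 1.72 to 12.4 FPKM on the days and 27.3 FPKM in iPSC. WT-1 had 39.4 FPKM in MEF, 45.5, 24.8, 15.0 and 8.52 FPKM on days 2, 4, 6 and 8, and 7.03 FPKM in iPSC. WT-2 had 77.4 FPKM in MEF, 78.1, 26.5, 72.1 and 77.3 FPKM on the same days, and 8.51 FPKM in iPSC. In both depleted systems iPSC lay above every earlier stage, and in both wild-type systems iPSC lay below every earlier stage. The ES libraries did not follow their own systems, with 7.46 FPKM in Mbd3f/- ES and 35.1 FPKM in WT-1 ES.

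Cd24a, a small glycolipid-anchored glycoprotein of epithelial and immature cells, was a transient marker in the depleted systems (ENSMUSG00000047139, chr10:43578284-43584265, plus strand). Mbd3f/- had 29.7 FPKM in MEF, then 193, 247, 228, 193, 141, 113, 31.1 and 11.6 FPKM on days 1 to 8 and 16.0 FPKM in iPSC. Gatad2a-/- had 37.5 FPKM in MEF, then 203, 241, 288, 387, 232, 96.4, 57.8 and 28.0 FPKM on days 1 to 8 and 20.5 FPKM in iPSC. The high phase spanned days 1 to 6 in both and ended below the MEF level by day 8. In WT-1 the sequence from MEF over days 2, 4, 6 and 8 to iPSC was 57.8, 57.5, 148, 122, 105 and 10.03 FPKM. In WT-2 it was 5.04, 5.54, 23.4, 25.7, 18.4 and 11.5 FPKM. Both wild-type courses also had their highest value between MEF and iPSC, on day 4 in WT-1 and day 6 in WT-2. They were near their MEF level on day 2, when both depleted courses were at several times theirs. That class difference on day 2 did not pass (2.78, limma adjusted p = 0.108).

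Icam1 encodes an adhesion molecule of the immunoglobulin superfamily that binds leukocyte integrins (ENSMUSG00000037405, chr9:21015985-21028817, plus strand), and in reprogramming it is known as a late marker of cells close to pluripotency. In the depleted systems its course had a trough. Mbd3f/- had 25.5 FPKM in MEF, 13.1, 6.92, 3.47, 3.06, 1.34, 1.17, 4.24 and 7.42 FPKM on days 1 to 8, and 37.6 FPKM in iPSC. Gatad2a-/- had 9.33 FPKM in MEF, 5.35, 6.66, 3.21, 0.671, 1.16, 0.840, 2.74 and 8.76 FPKM on days 1 to 8, and 15.5 FPKM in iPSC. No trough was seen in either wild-type system. WT-1 had 1.98 FPKM in MEF, 3.43, 5.18, 16.1 and 15.1 FPKM on days 2, 4, 6 and 8, and 16.4 FPKM in iPSC. WT-2 had 34.7 FPKM in MEF, 38.5, 45.7, 61.7 and 60.7 FPKM on these days, and 24.1 FPKM in iPSC. An antisense gene, Gm47079, overlaps Icam1, and reads of both may be mixed where strand was not used.

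Alpl, the tissue-nonspecific alkaline phosphatase that gives pluripotent colonies their stain (ENSMUSG00000028766, chr4:137741733-137796384, minus strand), moved in more than 1 step. In Mbd3f/- it was at 0.992 FPKM in MEF, at 11.6, 11.6, 9.57 and 8.25 FPKM on days 1 to 4, at 15.0, 30.9, 104 and 154 FPKM on days 5 to 8 and at 101 FPKM in iPSC. In Gatad2a-/- it was at 15.0 FPKM in MEF, at 23.7, 28.3, 17.7 and 8.03 FPKM on days 1 to 4, at 19.9, 51.3, 244 and 169 FPKM on days 5 to 8 and at 143 FPKM in iPSC. A first plateau around days 1 and 2, a dip on day 4 and a second increase after day 5 were common to both. WT-1 had 0.0824, 0.135, 19.3, 15.2, 10.2 and 76.5 FPKM from MEF over days 2, 4, 6 and 8 to iPSC. WT-2 had 20.9, 20.8, 27.7, 10.8, 14.7 and 178 FPKM over the same stages. From MEF to iPSC Alpl rose by 4.51 on the log2 scale (SE 0.73, limma adjusted p = 0.00019).

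Pecam1 encodes CD31, an adhesion molecule of endothelial cells and of pluripotent mouse cells (ENSMUSG00000020717, chr11:106654217-106750628, minus strand). Mbd3f/- had 1.29 FPKM in MEF, 0.356, 0.237, 0.196 and 0.790 FPKM on days 1 to 4, 3.51, 6.46, 14.1 and 21.1 FPKM on days 5 to 8, and 45.8 FPKM in iPSC. Gatad2a-/- had 1.48 FPKM in MEF, 0.849, 0.819, 1.11 and 2.28 FPKM on days 1 to 4, 9.94, 18.4, 26.6 and 38.9 FPKM on days 5 to 8, and 35.8 FPKM in iPSC. Both increased on every day from day 4 to day 8. In WT-1 the values were 0.0572, 0.0171, 0.0926, 0.0486 and 0.501 FPKM from MEF to day 8, against 12.9 FPKM in iPSC, and in WT-2 they were 0.437, 0.0553, 0.143, 0.269 and 0.363 FPKM, against 18.8 FPKM in iPSC. Pecam1 rose by 3.94 on the log2 scale from MEF to iPSC (SE 0.24, limma adjusted p = 5.5e-08). The endothelial cadherin Cdh5 was at 0 to 0.372 FPKM and the endothelial sialomucin Emcn at 0 to 0.422 FPKM on the days of Gatad2a-/-, and Cdh5 at 0 to 0.0348 FPKM and Emcn at 0 to 0.0178 FPKM on those of Mbd3f/-. Of 8 endothelial markers, 1 to 3 were at 1 FPKM or more on a depleted day, among them the receptor Tek at up to 31.8 FPKM.

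Cd9, a tetraspanin of many epithelia and of pluripotent cells, was high at every stage (ENSMUSG00000030342, chr6:125460266-125494791, minus strand). Mbd3f/- had 152 FPKM in MEF, 199 to 443 FPKM on days 1 to 8, with the highest value on day 7, and 284 FPKM in iPSC. Gatad2a-/- had 53.1 FPKM in MEF, 117 to 322 FPKM on the days, with the highest on day 8, and 160.2 FPKM in iPSC. WT-1 had 129.7, 129.8, 144, 182, 244 and 337 FPKM from MEF over days 2, 4, 6 and 8 to iPSC, and WT-2 had 193, 217, 126, 162, 132 and 439 FPKM. In both depleted systems day 8 was above iPSC, and in both wild-type systems iPSC was above day 8. From MEF to iPSC Cd9 rose by 1.26 on the log2 scale (SE 0.25, limma adjusted p = 0.00074). Gm26728 and Gm28809 overlap the gene in the annotation, and its pseudogene Cd9-ps was at 0 to 4.42 FPKM in the course libraries.

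Fut4 encodes a fucosyltransferase that can make the Lewis x antigen, known as SSEA1 on mouse pluripotent cells (ENSMUSG00000049307, chr9:14748320-14752393, minus strand). Its mRNA was low throughout and lower still in pluripotent cells. It had 0.174 FPKM in iPSC against 0.727 FPKM in MEF of Mbd3f/-, 0.0129 FPKM in iPSC against 0.712 FPKM in MEF of Gatad2a-/-, and 0.108 FPKM in iPSC against 0.367 FPKM in MEF of WT-1. In WT-2 it was listed at 0 in iPSC, against 1.02 FPKM in MEF. From day 4 to day 8 it stayed at 0 to 0.177 FPKM in the depleted systems. The wild-type systems had 0.325 to 1.03 FPKM over days 4, 6 and 8, in tables that were normalized separately. Fut4 fell by 0.66 from MEF to iPSC on the log2(FPKM + 1) scale, which understates the change at such levels (SE 0.14, limma adjusted p = 0.0015). It passed the filter on low values in the fit of all 4 systems only through WT-2, whose MEF and day 6 were above 1 FPKM, so its calls count as description and not as support. It was below the filter in the fit of the daily course.

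The daily sampling of the depleted systems allowed the steps to be tested in windows of 2 days (limma on 20 libraries and 20189 genes, 9 of the 10 markers tested). From MEF to days 1 and 2, where 29.5% of all genes passed (17.6% up, 11.9% down), 3 markers rose and 1 fell. Cd24a rose by 2.68 ± 0.27 (SE, adjusted p = 3.8e-05), Alpl by 1.71 ± 0.47 (adjusted p = 0.0164) and Cd9 by 0.78 ± 0.21 (adjusted p = 0.0138), while Thy1 fell by 2.66 ± 0.27 (adjusted p = 4.1e-05). With quantile scaling Cd9 was no longer called (0.50, adjusted p = 0.161) and Icam1 was (-1.13, adjusted p = 0.0200). With only the compared stages in the fit, Alpl (adjusted p = 0.0541) and Cd9 (adjusted p = 0.0748) were lost. In the next window, days 3 and 4 against days 1 and 2, 6.74% of genes passed, and of the markers Thy1 fell by a further 2.95 ± 0.22 and Icam1 by 1.35 ± 0.29 (limma adjusted p = 5.8e-05 and 0.0148). The first pair of windows thus held the loss of Thy1, the gain of Cd24a and the onset of the Icam1 trough.

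Between days 3 and 4 and days 5 and 6, where 4.75% of genes passed, Pecam1 rose by 2.23 ± 0.25 (limma adjusted p = 0.00055). Over the same step Cd44 fell by 1.79 ± 0.31 (adjusted p = 0.0067), Cd24a fell by 0.94 ± 0.22 (adjusted p = 0.0312) and Thy1 fell by 0.91 ± 0.22 (adjusted p = 0.0376, all limma with SE). Without the shallowest library, Gatad2a-/- day 6, the calls of Cd24a (-0.75, adjusted p = 0.150) and Thy1 (-0.95, adjusted p = 0.107) were lost. Days 7 and 8 against days 5 and 6 had the most marker calls, 3 up and 3 down, at 8.03% of all genes (4.69% up, 3.34% down). Alpl rose by 2.56 ± 0.38, Icam1 by 1.58 ± 0.29 and Pecam1 by 1.42 ± 0.25 (limma adjusted p = 0.0024, 0.0071 and 0.0063). Nt5e fell by 2.62 ± 0.42, Cd44 by 2.38 ± 0.31 and Cd24a by 2.27 ± 0.22 (limma adjusted p = 0.0037, 0.0012 and 0.00028). From days 7 and 8 to iPSC, 1.97% of genes passed, and Icam1 alone among the markers rose, by 2.00 ± 0.35 (limma adjusted p = 0.0127).

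**Figure D2:**
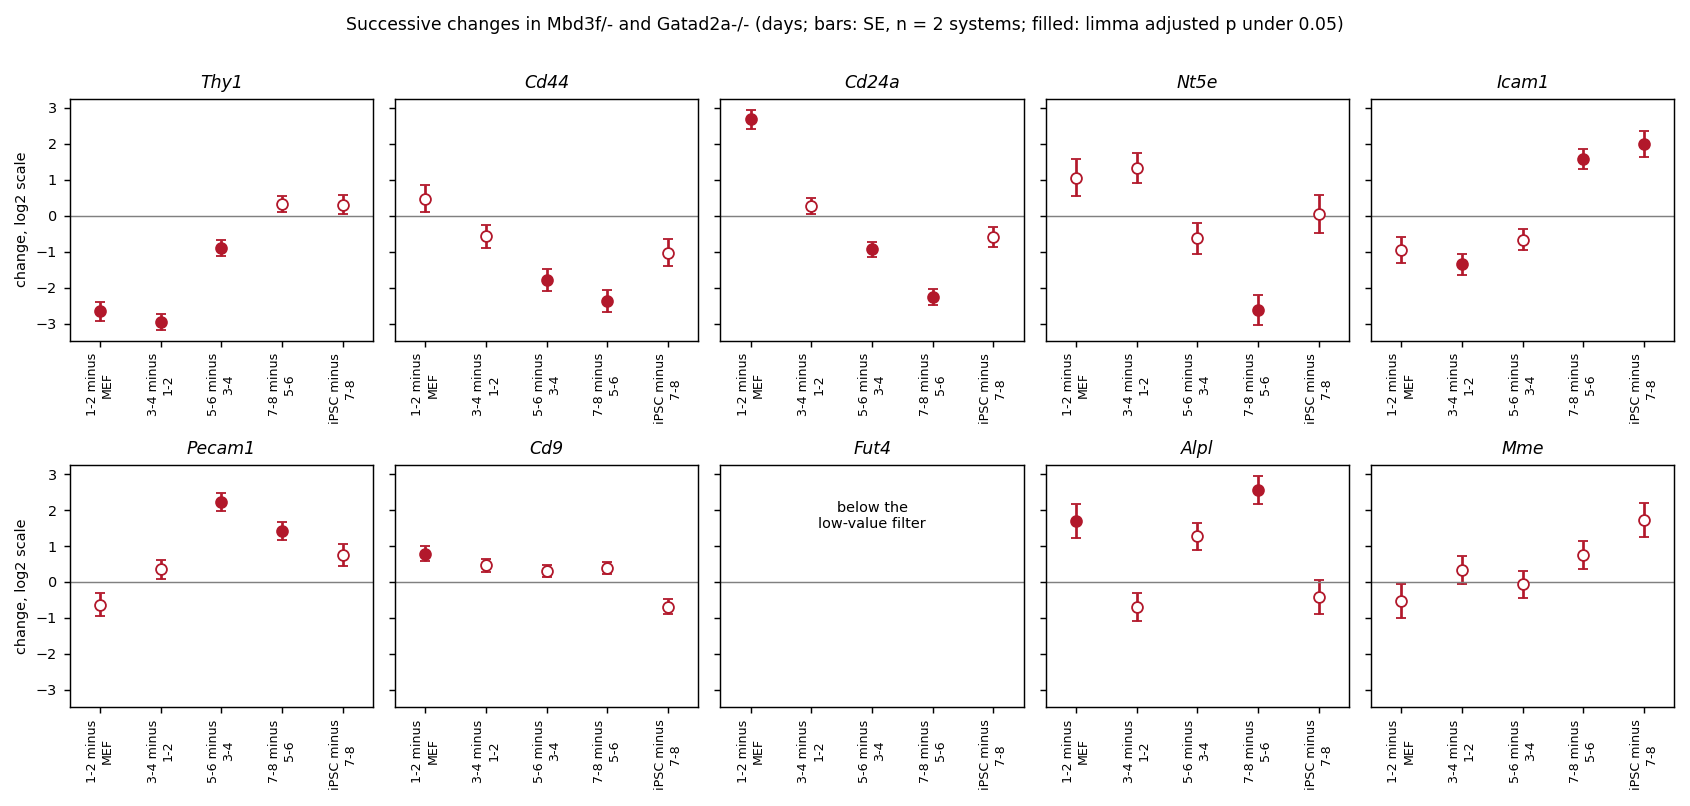
Change of each marker between successive windows of the daily courses of Mbd3f/- and Gatad2a-/-, on the log2(FPKM + 1) scale, later window minus earlier window; points are limma estimates, bars their SE, and filled points have an adjusted p under 0.05. Thy1 has its 2 largest losses in the first 2 windows, at -2.66 and -2.95, whereas Cd44, Cd24a and Nt5e have theirs from days 5 and 6 to days 7 and 8.

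To show the sequence at the start of markers that moved apart, promoters were read from RefSeq (GRCm38.p6), each with 250 bases before and 50 bases after the start. Of the 10 markers 7 matched, with 10 promoters in all, and Thy1, Cd24a and Pecam1 had no entry. Capitals mark letters of the motifs searched on both strands: CACGTG (the E-box), GGGCGG (the GC box), TATAAA (the TATA box), ATGCAAA (most of the octamer) and TGANTCA (the AP-1 site), where copies that overlap were each counted. The promoters shown are those of Cd44 and Nt5e, which fell in the same window, and of Icam1 and Alpl, which rose in it. They are given 5' to 3' along the gene.
Cd44, chr2:102901616-102901915, minus strand: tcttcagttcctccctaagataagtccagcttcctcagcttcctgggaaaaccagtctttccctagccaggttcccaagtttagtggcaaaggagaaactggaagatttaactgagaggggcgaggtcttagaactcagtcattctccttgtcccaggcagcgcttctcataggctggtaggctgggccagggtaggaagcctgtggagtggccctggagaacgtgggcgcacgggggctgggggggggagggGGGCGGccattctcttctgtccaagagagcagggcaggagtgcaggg
Nt5e, chr9:88327359-88327658, plus strand: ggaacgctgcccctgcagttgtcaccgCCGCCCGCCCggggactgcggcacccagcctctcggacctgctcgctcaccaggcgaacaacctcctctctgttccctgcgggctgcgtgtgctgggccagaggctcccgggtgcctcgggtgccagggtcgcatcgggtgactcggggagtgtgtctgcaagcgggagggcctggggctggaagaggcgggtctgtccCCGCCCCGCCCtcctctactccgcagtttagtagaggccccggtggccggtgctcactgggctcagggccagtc
Icam1, chr9:21015690-21015989, plus strand: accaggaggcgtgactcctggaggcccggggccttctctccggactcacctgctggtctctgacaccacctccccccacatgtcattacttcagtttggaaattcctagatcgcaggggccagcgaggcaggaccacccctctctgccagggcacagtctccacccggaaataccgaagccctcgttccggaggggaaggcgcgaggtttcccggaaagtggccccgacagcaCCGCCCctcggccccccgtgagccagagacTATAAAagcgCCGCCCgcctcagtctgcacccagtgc
Alpl, upstream start, chr4:137796335-137796634, minus strand: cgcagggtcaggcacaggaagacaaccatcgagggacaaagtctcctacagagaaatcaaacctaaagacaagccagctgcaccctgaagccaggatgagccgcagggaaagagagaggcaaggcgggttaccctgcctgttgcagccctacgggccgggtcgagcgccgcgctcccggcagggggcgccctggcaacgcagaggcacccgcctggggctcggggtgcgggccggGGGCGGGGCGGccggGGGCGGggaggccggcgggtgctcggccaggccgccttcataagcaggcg
Alpl, downstream start, chr4:137766426-137766725, minus strand: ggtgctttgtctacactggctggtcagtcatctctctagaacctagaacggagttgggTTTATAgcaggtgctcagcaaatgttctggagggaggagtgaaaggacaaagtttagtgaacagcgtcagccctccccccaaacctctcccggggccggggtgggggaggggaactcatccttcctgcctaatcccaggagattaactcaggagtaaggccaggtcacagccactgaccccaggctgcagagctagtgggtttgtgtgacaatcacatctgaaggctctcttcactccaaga
Cd44 held 1 copy of GGGCGG, Nt5e 4, Icam1 2 and the upstream promoter of Alpl 3, where 35.7% of all 32851 promoters of this length held at least 1. Icam1 and the downstream promoter of Alpl each held 1 TATAAA, present in 13.6% of all promoters. TGANTCA, in 7.81% of promoters, was found among the markers in Mme only, as 1 site that lies in 2 overlapping promoter windows. CACGTG, in 7.15%, and ATGCAAA, in 4.63%, were in none of the 10 windows. A match is a description of letters and does not show a bound site.

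As a description of the order, the stage was taken from which a marker stayed at least 50% of the way from its own MEF level to its own iPSC level, for markers whose levels differed by at least 1 on the log2 scale in that system. By day 8 this stage was reached in 11 of 12 pairs of marker and system in the depleted class and in 6 of 18 pairs in the wild-type class. The stage was not taken for all genes. By limma, 34.3% of all genes passed from MEF to day 8 in the depleted class and 1.16% in the wild-type class. In Mbd3f/- the order was Thy1 on day 2, Alpl on day 5, then Cd44, Nt5e and Pecam1 on day 7, with Mme in iPSC. In Gatad2a-/- it was Cd9 on day 1, Thy1 on day 3, Pecam1 on day 5, Alpl on day 6, Cd44 on day 7 and Mme on day 8. The order of Alpl and Pecam1 thus differed between the 2 depleted systems, with 1 library a day.

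The wild-type courses gave another picture of the same stages. WT-1 reached that stage for Alpl on day 4, for Icam1 and Mme on day 6 and for Cd9 on day 8, and for Thy1, Cd44, Cd24a, Nt5e and Pecam1 only in iPSC. WT-2 reached it on day 4 for Nt5e and Cd24a, and in iPSC for Thy1, Cd44, Pecam1, Cd9, Fut4, Alpl and Mme. On day 8 Thy1 had gone 104% of the way in Mbd3f/- and 96.8% in Gatad2a-/-, against -2.58% in WT-1 and 35.7% in WT-2. For Cd44 the same day gave 105% in Mbd3f/- and 70.6% in Gatad2a-/-, against 11.9% in WT-1 and 28.7% in WT-2. Where the threshold was 67% of the way or the linear scale was used, 19 and 17 of the 30 pairs kept the same stage.

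**Figure D3:**
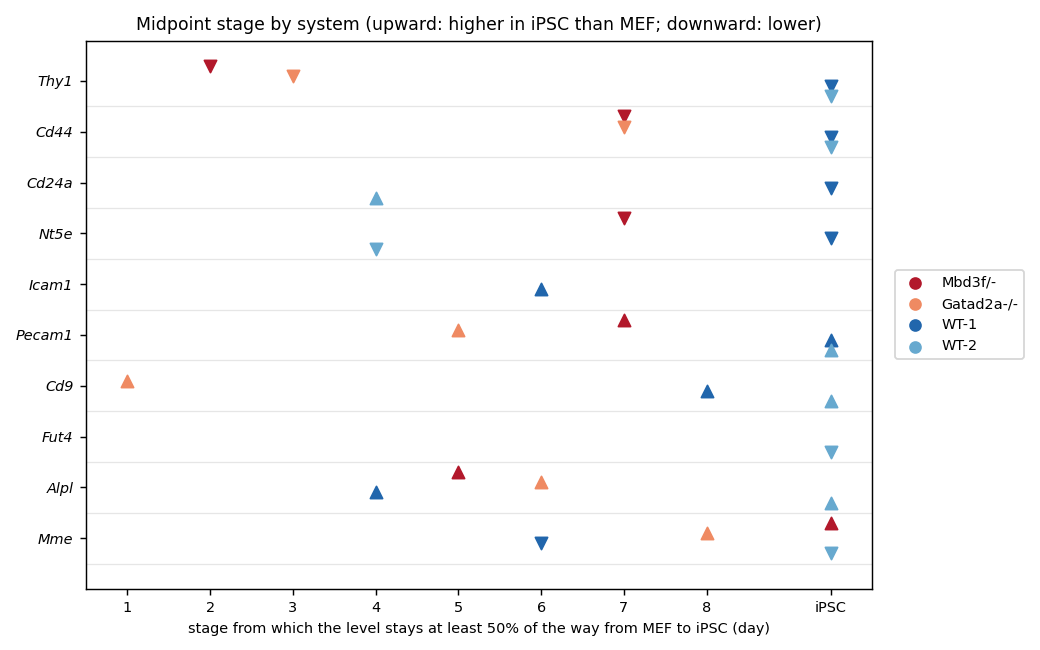
Stage from which each marker stayed at least 50% of the way from MEF to iPSC, by system, for the 30 pairs of marker and system whose MEF and iPSC differed by at least 1 on the log2 scale; upward triangles are markers higher in iPSC than in MEF and downward triangles markers lower in iPSC. The depleted systems lie between days 1 and 8 except for Mme of Mbd3f/-, and 12 of the 18 wild-type pairs lie at iPSC. The stage was not taken for all genes.

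Whether the 2 classes differed in these changes was asked of the change from MEF on days 2, 4, 6 and 8, depleted minus wild type. The 4 comparisons share the same MEF libraries and are no independent tests of each other. On day 2 only Thy1 of the 10 markers differed, at -3.42 ± 0.70 (SE, limma adjusted p = 0.0268), while 2.43% of genes passed. On day 4, at 6.46% of genes, Thy1 differed by -5.19 ± 0.70 and Icam1 by -3.39 ± 0.84 (limma adjusted p = 0.0013 and 0.0305). On day 6, at 12.2% of genes, the differences were -5.17 ± 0.70 for Thy1, -4.72 ± 0.84 for Icam1 and 2.43 ± 0.49 for Pecam1 (limma adjusted p = 0.0006, 0.0033 and 0.0062). On day 8, at 16.1% of genes, they were -4.93 ± 0.70 for Thy1, -3.53 ± 0.61 for Cd44, 3.43 ± 0.49 for Pecam1 and 1.79 ± 0.49 for Cd9 (limma adjusted p = 0.0006, 0.0021, 0.00059 and 0.0252).

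Some of these calls were lost when a system was left out. The day 2 call of Thy1 was lost without any one of the 4 systems (-4.15 to -2.70, adjusted p = 0.0572 to 0.279), and so was the day 4 call of Icam1 (-3.72 to -3.06, adjusted p = 0.0648 to 0.176). The other calls of Thy1, and those of Cd44 and Pecam1 on day 8, held without each system in turn. The day 6 call of Icam1 was lost without Mbd3f/- (-4.16, adjusted p = 0.0854), and that of Pecam1 without WT-1 (2.52, adjusted p = 0.0686) or WT-2 (2.35, adjusted p = 0.120). Cd9 on day 8 was lost without Mbd3f/- (2.40, adjusted p = 0.0645), Gatad2a-/- (1.19, adjusted p = 0.282) or WT-2 (1.07, adjusted p = 0.262). Without WT-1, Alpl (5.33, adjusted p = 0.0240) and Cd24a (-2.53, adjusted p = 0.0354) passed on day 8. Without WT-2, Icam1 (-3.30, adjusted p = 0.0473) and Mme (3.00, adjusted p = 0.0291) did.

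**Figure D4:**
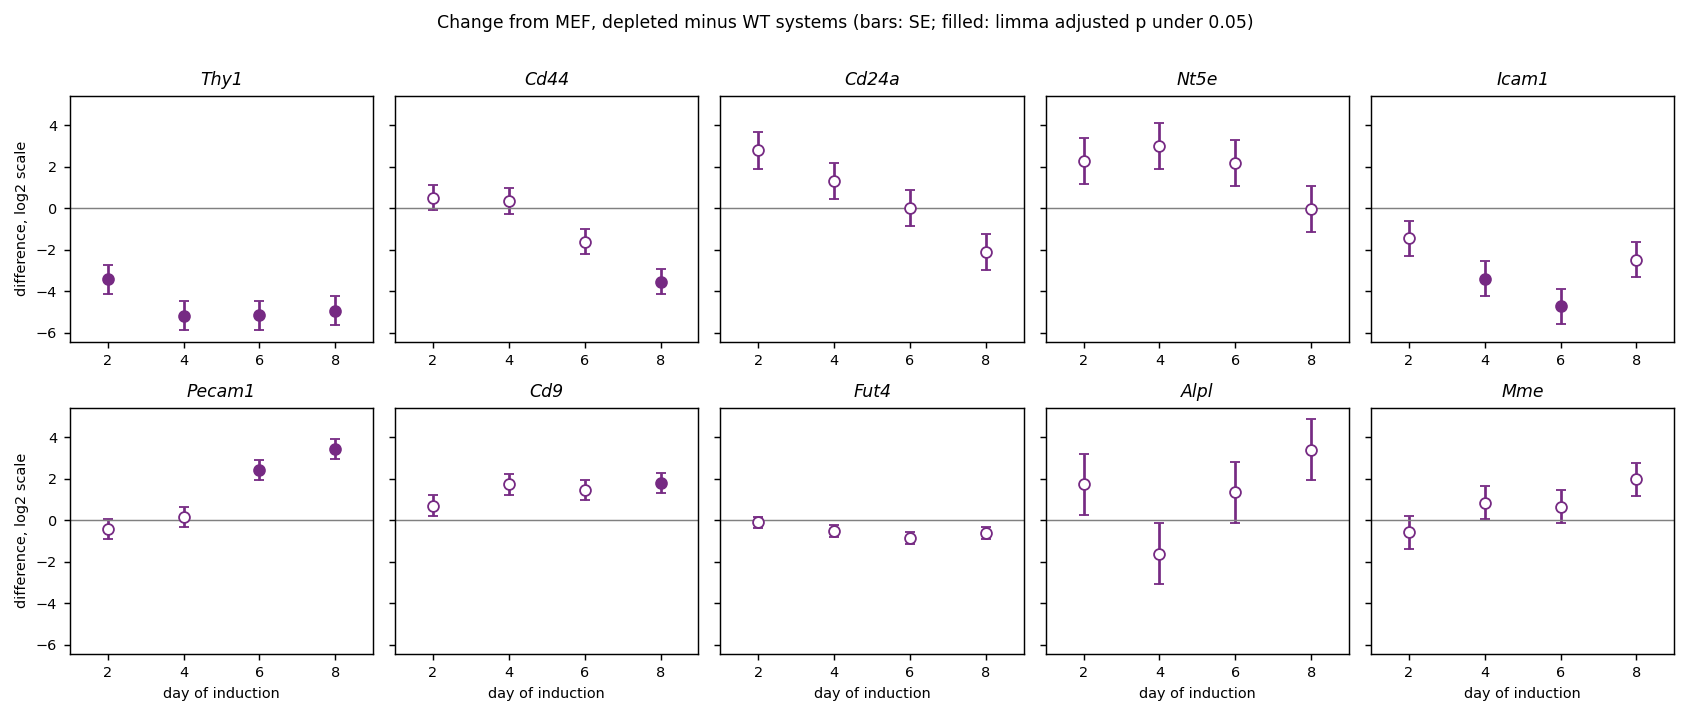
Change from MEF on days 2, 4, 6 and 8 in the depleted systems (Mbd3f/- and Gatad2a-/-) minus that in the wild-type systems (WT-1 and WT-2), on the log2(FPKM + 1) scale; points are limma estimates, bars their SE, and filled points have an adjusted p under 0.05. Thy1 is filled on all 4 days, at -3.42 to -5.19, and the other filled points are Icam1 on days 4 and 6, Pecam1 on days 6 and 8, and Cd44 and Cd9 on day 8.

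Markers of macrophages differed between the systems. The 8 macrophage and blood genes measured summed to 1217 FPKM in Mbd3f/- MEF and 260.2 FPKM in Gatad2a-/- MEF, against 9.65 FPKM in WT-1 MEF and 4878 FPKM in WT-2 MEF. On the days they summed to 37.6 to 614 FPKM in Mbd3f/- and 47.1 to 363 FPKM in Gatad2a-/-, against 16.5 to 52.9 FPKM in WT-1 and 4275 to 8608 FPKM in WT-2. All 8 were at 1 FPKM or more in every WT-2 day library. Without WT-2, and so against WT-1 alone, the day 6 difference of Icam1 was -5.57. The macrophage sums still changed in the systems left, from 1217 FPKM in Mbd3f/- MEF to 46.7 FPKM on day 6 of Mbd3f/-. Their part in the difference of Icam1, and in the changes of the other markers, Fut4 and Cd44 included, was not tested.

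Within the depleted class, 6 of the 10 markers passed between MEF and day 8, 3 up and 3 down, at 34.3% of all genes (19% up, 15.3% down). Alpl rose by 4.84 ± 1.04, Pecam1 by 3.64 ± 0.34 and Cd9 by 1.98 ± 0.35 (limma adjusted p = 0.0031, 7.5e-06 and 0.00082). Thy1 fell by 5.92 ± 0.50, Cd44 by 4.53 ± 0.43 and Fut4 by 0.75 ± 0.20 (limma adjusted p = 3e-06, 7.8e-06 and 0.0113). Alpl was no longer called without Mbd3f/- (3.40, adjusted p = 0.255), Cd9 without Gatad2a-/- (1.37, adjusted p = 0.108) and Fut4 without Mbd3f/- (-0.74, adjusted p = 0.0559) or Gatad2a-/- (-0.76, adjusted p = 0.0896). Fut4 was at or under 0.819 FPKM in every Mbd3f/- library and 0.712 FPKM in every Gatad2a-/- library, and was tested only because of WT-2, so its place among the 6 is a description. From day 8 to iPSC in the depleted class, 0 of the 10 passed, at 0.562% of all genes. An unadjusted limma p under 0.05 was seen for 2 of the 10, Icam1 and Mme, and for 1406 of 20296 genes.

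In the wild-type class the calls lay in the other interval. Between MEF and day 8, 0 of the 10 markers passed, at 1.16% of all genes. An unadjusted limma p under 0.05 was seen for Cd44 and Icam1, and for 3073 of 20296 genes. Between day 8 and iPSC 8 of the 10 passed, at 35.3% of all genes. Pecam1 rose by 3.53 ± 0.34, Alpl by 3.15 ± 1.04 and Cd9 by 1.09 ± 0.35, and Thy1 fell by 4.50 ± 0.50, Cd44 by 3.82 ± 0.43 and Cd24a by 1.95 ± 0.62. Mme fell by 1.64 ± 0.57 and Fut4 fell by 0.54 ± 0.20. Fut4 was tested only because of WT-2, so its place among the 8 is a description. The limma adjusted p of the 8 was at most 0.0493. Thy1, Cd44 and Pecam1 held without each of the 4 systems in turn. The other 5 missed the threshold without at least 1 system, with Alpl at 2.79 (adjusted p = 0.109), Cd9 at 0.46 (adjusted p = 0.622) and Mme at -0.25 (adjusted p = 0.984) without WT-2, and Cd24a at -0.64 (adjusted p = 0.413) and Fut4 at -0.72 (adjusted p = 0.155) without WT-1.

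Of the 3 markers that did not pass from MEF to iPSC over the 4 systems, Mme was the one whose change differed between the classes. Its change from MEF to iPSC was 4.88 ± 0.81 higher in the depleted than in the wild-type systems (SE, limma adjusted p = 0.0274), a comparison added after its values had been seen, in which 0.31% of all genes passed. It was lost without Mbd3f/- (5.20, adjusted p = 0.0745), Gatad2a-/- (4.56, adjusted p = 0.151) or WT-2 (4.53, adjusted p = 0.0750). Both depleted MEF were at or under 6.73 FPKM and both wild-type MEF at or above 39.4 FPKM, levels set across tables that were normalized separately. Without WT-2, Cd24a fell by 1.63 from MEF to iPSC (adjusted p = 0.0033) and Icam1 rose by 1.58 (adjusted p = 0.0119). Without WT-1, Cd24a was at 0.10 (adjusted p = 0.833).

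ES cells and iPSC were compared in the systems that had both. Of the 10 markers 0 passed, at 0% of 20401 genes, and 1 marker, Nt5e, had an unadjusted limma p under 0.05, as did 515 genes. This count, and those of 0 above for each class, were also 0 with limma's plain eBayes. Nt5e was at 0.539 FPKM in Mbd3f/- ES against 1.97 FPKM in Mbd3f/- iPSC, and at 0.135 FPKM in WT-1 ES against 0.936 FPKM in WT-1 iPSC. Pecam1 was at 25.5 FPKM in ES against 45.8 FPKM in iPSC of Mbd3f/-, and at 26.3 FPKM in ES against 12.9 FPKM in iPSC of WT-1. Thy1 likewise went opposite ways, at 5.21 FPKM in ES against 2.73 FPKM in iPSC of Mbd3f/- and at 2.60 FPKM in ES against 6.39 FPKM in iPSC of WT-1.

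Other genes with roles near those of the markers were taken as lists. The lists were chosen with earlier results of these data known, so their counts are a description. Their counts from MEF to iPSC stand beside the 29% of all genes that rose and the 23.9% that fell, and those from MEF to day 8 beside the 19% that rose and 15.3% that fell in the depleted systems and the 1.16% that passed in the wild-type systems. Of 17 further mesenchymal surface genes, 14 fell from MEF to iPSC and 0 rose, with a median of -3.14. Among them were the stromal sialomucin Cd248 (-5.21 ± 0.51, limma adjusted p = 2.9e-06), the growth factor receptor Pdgfrb (-4.92 ± 0.31, adjusted p = 7.2e-08), the adhesion molecule Vcam1 (-4.81 ± 0.31, adjusted p = 7.2e-08) and Cd109 (-4.22 ± 0.56, adjusted p = 3.5e-05). In the depleted systems 13 of the 17 had fallen by day 8, and in the wild-type systems 1 had. Vcam1 was at 0.192 to 0.893 FPKM on day 4 of the depleted systems, against 35.5 to 101 FPKM on day 4 of the wild-type systems.

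Of 14 epithelial and pluripotent surface genes 8 rose and 2 fell from MEF to iPSC, with a median of 2.05. The Nodal co-receptor Tdgf1 rose by 8.71 ± 0.66 (limma adjusted p = 3.4e-07), the adhesion molecule Epcam by 4.80 ± 0.83 (adjusted p = 0.00031), E-cadherin, Cdh1, by 4.77 ± 0.83 (adjusted p = 0.00031) and the claudin Cldn4 by 4.19 ± 0.48 (adjusted p = 1e-05). By day 8, 9 of the 14 had risen in the depleted systems and 0 in the wild-type systems, where the systems went apart. On day 8 Cdh1 was at 62.8 FPKM in Mbd3f/- and 114 FPKM in Gatad2a-/-, against 51.7 FPKM in WT-1 and a listed 0 in WT-2.

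Around Cd44, 12 of 14 listed hyaluronan genes were tested, of which 5 fell and 2 rose from MEF to iPSC, where 23.9% and 29% of all genes did. The membrane protease Mmp14, which cuts Cd44, fell by 4.54 ± 0.24 (limma adjusted p = 1.9e-08), the membrane-cytoskeleton linker Msn fell by 3.32 ± 0.30 (adjusted p = 1.3e-06), the proteoglycan Vcan by 3.04 ± 0.40 (adjusted p = 3.3e-05) and the hyaluronan synthase Has2 by 2.66 ± 0.35 (adjusted p = 2.9e-05). Has2 preceded Cd44 in time in Mbd3f/-, where it was at 6.06 FPKM in MEF and 0.748 FPKM on day 2, with Cd44 still at 61.5 FPKM. Around Nt5e, 8 of 11 genes of extracellular purine metabolism were tested, with 3 up and 3 down. Enpp1, which makes AMP from ATP, fell by 2.53 ± 0.33 (limma adjusted p = 3.2e-05), and the ectonucleotidase Entpd1, which supplies AMP to CD73, fell by 1.64 ± 0.59 (adjusted p = 0.0314). Dpp4 rose by 2.18 ± 0.47 (adjusted p = 0.0014), and the nucleoside transporter Slc29a1 by 1.88 ± 0.22 (adjusted p = 1.1e-05).

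Of 13 genes of fucose metabolism and Lewis x synthesis 10 were tested, with 2 up and 5 down from MEF to iPSC, against 29% and 23.9% of all genes. The galactosyltransferase B4galt1 fell by 2.21 ± 0.18 (limma adjusted p = 6.6e-07), the GDP-fucose enzyme Gmds by 1.83 ± 0.20 (adjusted p = 6.9e-06) and Fut11 by 1.24 ± 0.20 (adjusted p = 0.00014). Fut9, the other fucosyltransferase known to make Lewis x in the mouse, rose by 1.43 ± 0.32 (adjusted p = 0.0021). On days 2, 4, 6 and 8 Fut9 was at 1.33, 2.68, 3.09 and 1.29 FPKM in Mbd3f/- and at 2.55, 3.91, 11.9 and 11.01 FPKM in Gatad2a-/-, against at most 0.254 FPKM in WT-1 and at most 0.00643 FPKM in WT-2. Its change from MEF was 2.78 higher in the depleted systems on day 6 and 2.16 higher on day 8 (limma adjusted p = 0.0136 and 0.0366). On each of these days 1 of the 10 was higher and 2 were lower, at 12.2% of all genes on day 6 and 16.1% on day 8. Fut9 was not rechecked with a system left out.

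Of 11 other tetraspanins and Cd9 partners 8 fell and 0 rose from MEF to iPSC, with a median of -1.09, where 23.9% of all genes fell and 29% rose. Their difference from Cd9 was not tested. The tetraspanin Cd82 fell by 3.81 ± 0.48, Cd53 fell by 2.93 ± 0.70, Cd63 fell by 2.61 ± 0.23 and Tspan4 fell by 2.51 ± 0.33 (limma adjusted p = 2.3e-05, 0.0030, 1.3e-06 and 3.5e-05). Cd53 is a leukocyte gene, and the part of the macrophage markers above in its change was not tested. Among relatives and ligands of Icam1 and Pecam1, 7 of 10 were tested, with 1 up and 5 down. The junctional molecule Jam2 rose by 4.38 ± 0.35 (limma adjusted p = 5.2e-07). Cd47 fell by 3.92 ± 0.23 (adjusted p = 3.9e-08), and the integrin chains Itgb2 and Itgam, which are ligands of Icam1 on leukocytes, fell by 2.83 ± 0.76 and 2.68 ± 0.87 (adjusted p = 0.0068 and 0.0190). Itgb2 was at 65.9 FPKM in WT-2 MEF, against 0.0890 FPKM in WT-1 MEF.

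Few relatives of Alpl and Mme were expressed. Of 10 other alkaline phosphatases and proteases of the neprilysin family, 4 passed the filter, of which 2 fell from MEF to iPSC and 0 rose. Ece1, which makes endothelin, fell by 2.06 ± 0.35 (limma adjusted p = 0.00022) and Phex by 0.54 ± 0.17 (adjusted p = 0.0135). The phosphatase gene Alppl2, a close relative of Alpl, was at or under 0.274 FPKM in every library.

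For each marker the 3 genes with the most similar course were taken from 12020 genes with at least 5 FPKM in some library, by Pearson's r of log2(FPKM + 1) over the 34 course libraries after the mean of each system had been taken away. The libraries share their systems, tables and stages, so r is a description. Pecam1 was closest to Tfcp2l1, a transcription factor of naive pluripotency (r = 0.987), then to Trap1a and Morc1. Thy1 was closest to Bgn, a small proteoglycan of matrix (r = 0.970), then to Mical2 and Fgfrl1, and Cd44 to Emp1 (r = 0.973), Ptrf and Ccnd2. Cd24a was closest to Ano1, a chloride channel (r = 0.918), Klrg2 and Fah. Cd9 was closest to Usp37 (r = 0.913), Slc35f2 and St14, and Alpl to Lrrc8d (r = 0.903), Ranbp17 and Txlng. Fut4 was closest to Apbb1ip (r = 0.930), Anpep and Sh3bp5. The lowest values were those of Nt5e with Bhlhb9 (r = 0.856), Icam1 with the LIF receptor Lifr (r = 0.853) and Mme with Arfgef2 (r = 0.755).

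The Myc libraries asked what the markers do when Myc is added or withheld in Mbd3f/- cells. Libraries labelled OSK+cMyc, cMyc and OSK were overexpression cultures of Mbd3f/- on day 4. The others came from the Mbd3f/- OSK2nd line, made from MEF of Mbd3flox/- chimeras with an inducible Oct4, Klf4 and Sox2 cassette without Myc, and were treated with siRNA to cMyc, nMyc and lMyc (siMyc), a Myc inhibitor or si-Scramble. Si-Scramble MEF had 2 libraries and every other group 1, no test was run, and a log2 difference of at least 1 is called past the fold. In 14174 genes the 2 MEF libraries differed with an SD of 0.27 on the log2 scale, and 134 genes were past the fold between them. The level of Myc itself did not follow all labels: it was at 3.16 FPKM in the library labelled OSK+cMyc and 0.510 FPKM in that labelled cMyc, against 24.8 FPKM in that labelled OSK. The labels do not say whether transcript of the added Myc is counted in this entry. Nor did the siRNA libraries all follow theirs. Myc was at 10.99 FPKM in siMyc day 7, against 16.2 FPKM in si-Scramble day 7, but at 29.2 FPKM in siMyc day 3, against 26.5 and 30.5 FPKM in si-Scramble MEF. Mycl, the gene of L-Myc, was at 3.31 FPKM in siMyc day 7, against 1.03 FPKM in si-Scramble day 7, and at 3.93 FPKM in siMyc day 3, against 1.29 and 1.65 FPKM in si-Scramble MEF.

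**Figure D5:**
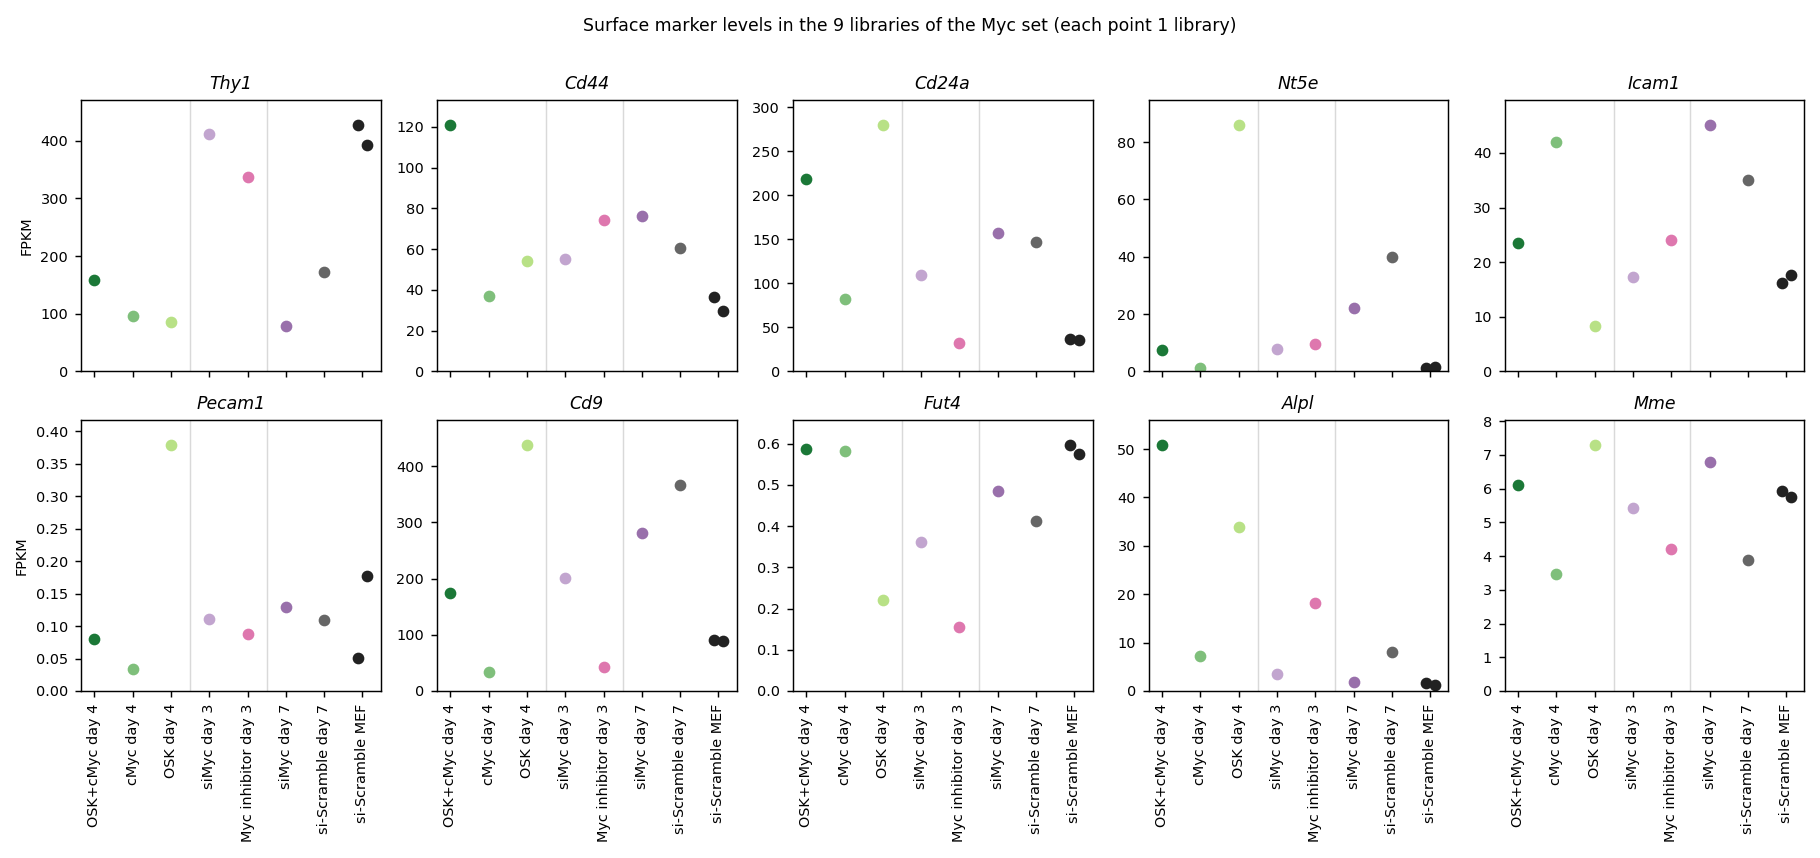
FPKM of each marker in the 9 libraries of the Myc set, controls included, 1 point a library, with the 2 si-Scramble MEF libraries side by side at the right; every vertical axis starts at 0. Nt5e and Cd9 are highest in the library labelled OSK, at 86.0 and 438 FPKM, and Cd44 and Alpl in that labelled OSK+cMyc, at 121 and 50.9 FPKM.

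Between the libraries labelled OSK+cMyc and OSK, 4 of the 8 markers that passed the filter were past the fold, 2 higher and 2 lower, against 26.8% of 16430 genes (11.1% higher, 15.7% lower). Cd44 was at 121 FPKM in the library labelled OSK+cMyc and 54.1 FPKM in that labelled OSK (log2 difference 1.15). Icam1 was at 23.6 FPKM with OSK+cMyc and 8.37 FPKM with OSK (1.39). Nt5e was at 7.43 FPKM with OSK+cMyc and 86.0 FPKM with OSK (-3.37), and Cd9 at 174 FPKM with OSK+cMyc and 438 FPKM with OSK (-1.32). Nt5e had the widest gap of the markers. The pseudogene Cd9-ps was at 18.4 FPKM with OSK+cMyc and 132 FPKM with OSK, so reads of Cd9 and its copy may be split. Thy1 was at 159 FPKM with OSK+cMyc and 84.8 FPKM with OSK, and Cd24a at 218 FPKM with OSK+cMyc and 279.8 FPKM with OSK, both within the fold. The keratinocyte markers summed to 66.0 FPKM with OSK+cMyc and 7.03 FPKM with OSK, and their part was not tested. Pecam1 and Fut4 did not pass the filter, and stayed at or under 0.380 and 0.598 FPKM in all 9 libraries.

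Against the library labelled cMyc, that labelled OSK+cMyc was past the fold for 5 of the 8 markers, all higher, at 12.8% of genes (8.81% higher). Alpl was at 50.9 FPKM with OSK+cMyc and 7.28 FPKM with cMyc (2.65), Cd9 at 174 FPKM with OSK+cMyc and 34.6 FPKM with cMyc (2.30), and Nt5e at 7.43 FPKM with OSK+cMyc and 1.01 FPKM with cMyc (2.07). Cd44 was at 121 FPKM with OSK+cMyc and 36.8 FPKM with cMyc (1.69), and Cd24a at 218 FPKM with OSK+cMyc and 82.0 FPKM with cMyc (1.40). Cd9-ps was at 18.4 FPKM with OSK+cMyc and 4.83 FPKM with cMyc. Thy1 was within the fold, at 159 FPKM with OSK+cMyc and 96.2 FPKM with cMyc. With cMyc, the Cd9, Nt5e and Pecam1 values were the lowest of the 9 libraries. The comparisons with OSK and with cMyc share the library labelled OSK+cMyc.

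In the OSK2nd line, si-Scramble day 7 against MEF was past the fold for 6 of the 8 markers, 5 higher and 1 lower, at 12.6% of genes (7.22% higher, 5.41% lower). Nt5e was at 39.7 FPKM on day 7, against 1.27 and 1.60 FPKM in the MEF libraries (4.07). Cd9 was at 367 FPKM against 91.0 and 89.7 FPKM (2.01), Cd24a at 146 FPKM against 37.1 and 35.3 FPKM (1.99), Alpl at 8.05 FPKM against 1.60 and 1.26 FPKM (1.90) and Icam1 at 35.0 FPKM against 16.2 and 17.6 FPKM (1.01). Thy1 was at 172 FPKM against 427 and 392 FPKM (-1.24). The 7 keratinocyte markers summed to 169.8 FPKM in si-Scramble day 7, with 4 of them at 1 FPKM or more, and to 165 FPKM in siMyc day 7, with 3 of them, against 8.63 and 8.90 FPKM in the MEF libraries. They summed to 68.3 FPKM in siMyc day 3, and their part in these differences was not tested. Thy1 was far above the 0.993 to 2.86 FPKM of day 7 in the depleted courses with OKSM, levels set across separately normalized tables.

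With siMyc on day 7, 2 markers were past the fold against si-Scramble day 7, both lower, at 7.27% of genes (4.18% lower). Alpl was at 1.83 FPKM with siMyc and 8.05 FPKM with si-Scramble (-1.67), and Thy1 at 79.0 FPKM with siMyc and 172 FPKM with si-Scramble (-1.12). Within the fold, Nt5e was at 22.2 FPKM with siMyc and 39.7 FPKM with si-Scramble, and Cd9 at 281 FPKM with siMyc and 367 FPKM with si-Scramble. Alpl with siMyc was thus near the 1.26 and 1.60 FPKM of MEF.

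Si-Scramble had no day 3 library, so in comparisons of day 3 with MEF induction and Myc treatment cannot be told apart. On day 3, siMyc against si-Scramble MEF was past the fold for 3 of the 8 markers, all higher, at 12.9% of genes (4.56% higher). These were Nt5e at 7.68 FPKM (1.84), Cd24a at 109 FPKM (1.57) and Cd9 at 201 FPKM (1.15). The Myc inhibitor on day 3 was past it for 4, at 20.4% of genes. Alpl was at 18.1 FPKM with the inhibitor (2.98 over MEF), Nt5e at 9.40 FPKM (2.10), Cd44 at 74.4 FPKM (1.15) and Cd9 at 42.0 FPKM (-1.09). Cd9 was thus higher than MEF with siMyc and lower than MEF with the inhibitor, and Cd24a was at 109 FPKM with siMyc and 31.8 FPKM with the inhibitor. Thy1 had hardly moved on day 3, at 411 FPKM with siMyc and 338 FPKM with the inhibitor, against 427 and 392 FPKM in MEF. Between days 7 and 3 of siMyc, at 15.3% of genes, 3 markers were past the fold. Thy1 was at 79.0 FPKM on day 7 and 411 FPKM on day 3 (-2.37), Nt5e at 22.2 FPKM on day 7 and 7.68 FPKM on day 3 (1.42) and Icam1 at 45.1 FPKM on day 7 and 17.2 FPKM on day 3 (1.34). The comparisons with MEF share its libraries, and those with siMyc day 7 share that library.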

How the data were processed

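RNA was read out as FPKM, which the authors deposited in 5 tables, 4 of them for the course systems and 1 for the Myc libraries. Per the submitters' processing notes the tools were CASAVA 1.8.2, TopHat2 2.0.10 and Cufflinks 2.2.1 with mm10; the annotation release, and whether strand was used, are not stated in the sources at hand, and per the labels' protocols the library kit does not mark strand. FPKM carry no counts, so the absolute depth is unknown and low values are imprecise. Duplicated identifiers (19) and 1 blank line were left out, and 0 value columns were unmatched. limma 3.58.1 in R 4.3.3 was fitted to log2(FPKM + 1) of all genes with at least 1 FPKM in at least 2 libraries, with means for each class and stage, system as a block, robust and trended eBayes, and Benjamini-Hochberg adjustment over all genes at 0.05. The fit was tested on simulated data with independent noise in each library and changes only in more abundant genes. That test thus does not cover serial libraries of 1 course or genes at low values. Of the Myc groups, si-Scramble MEF had 2 libraries and each of the others 1; they were compared by a log2 difference of 1, and no test was run. Descriptions were made in Python 3.11.15. Members and gene lists were chosen with earlier results of these data known. Named genes were the 10 markers, up to 4 called genes with the largest change from MEF to iPSC in each list, and the 3 genes most like each marker. Where a symbol stood for 2 identifiers (Cd47, Adora3), the identifier annotated with that symbol was used. Alternatives were other pseudocounts, filters, scaling, eBayes, samples and blocks, and leaving out each system.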

Additional observations from a re-analysis of the deposited data

Results flagged for a closer look

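Cd44 in MEF stood apart in 1 system: at 7.33 on the log2(FPKM + 1) scale, Gatad2a-/- was far above the other 3 systems, by a gap that exceeds Dixon's 95% critical value of 0.829 for 4 samples. Of 30 groups of 4 tested this way 1 stood out, and chance alone gives about 1 in 20. The tables were normalized separately.

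The other results listed here differed between the depleted and the wild-type systems in their change from MEF, by limma's test of that difference. For Thy1 the difference was -3.42 (day 2), -5.19 (day 4), -5.17 (day 6) and -4.93 (day 8). Icam1 differed by -3.39 on day 4 and -4.72 on day 6, and Pecam1 by 2.43 on day 6 and 3.43 on day 8. On day 8 Cd44 differed by -3.53 and Cd9 by 1.79. In iPSC Mme differed by 4.88, a comparison added after its values were seen.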

How the results depend on the processing

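Counts are of markers past the threshold. In the wild-type systems from day 8 to iPSC the count of 8 was 5 without the filter, 3 without the system block, 4 with only the compared stages, and 3 to 6 with a system left out. For depleted minus wild type, day 2 had 1, and 0 without the filter, without the block, with only the compared stages and with any system left out. Day 4 had 2, and 1 without the filter, without the block or without any system. Days 6 and 8 had 3 and 4, and 1 and 2 without the block. The added iPSC comparison had 1, and 0 with a pseudocount of 0.1, without the block or with only the compared stages, and 0 to 1 with a system left out.

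In the daily courses, days 1 and 2 had 4 and days 3 and 4 had 2, against 2 and 1 both without the block and with only the compared stages. Days 5 and 6 had 4, and 2 without the filter, 1 without the block and 2 without the Gatad2a-/- day 6 library. Days 7 and 8 had 6, and 3 without the block, and iPSC had 1, and 0 without the block or with only the compared stages. Of 49 calls, 26 were lost under at least 1 alternative. Leaving out a system was run only for the calls outside the daily courses, and 15 of those were lost. The cause was not tested. The sign of 1 value turned, Cd24a from MEF to iPSC, at 0.10 without WT-1, against -1.63 without WT-2. The counts of 0 stayed at 0 under every alternative run.

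Counts of all genes past the threshold ranged over the alternatives from 6407 to 11100 for iPSC against MEF (10748 as reported), from 2908 to 7095 for depleted day 8 (6961), from 0 to 321 for wild-type day 8 (235), from 0 to 2712 for depleted iPSC against day 8 (114) and from 1688 to 7861 for wild-type iPSC against day 8 (7167). For the class difference they ranged from 0 to 2264 on day 2 (493), 205 to 3335 on day 4 (1311), 601 to 4202 on day 6 (2466), 792 to 4969 on day 8 (3273) and 0 to 2673 in iPSC (63). In the successive daily windows they ranged from 2281 to 5979 (5957), 439 to 1603 (1361), 235 to 1325 (959), 337 to 2091 (1621) and 44 to 424 (397), and for ES against iPSC from 0 to 682 (0). Quantile scaling changed the median of all genes to 0.10, against 0.23 as deposited, for depleted day 8, to 0.12, against 0.23, for the class difference on day 8, and to 0.02, against 0.24, for siMyc day 7 against day 3. It changed the share of higher calls to 31.6%, against 17.3%, for the class difference on day 4, to 37.8%, against 54.0%, for that in iPSC, and to 46.3%, against 58.4%, for days 7 and 8. Stages of 1 system were matched by the system block, and its removal is given above; the course libraries carry no replicate numbers. Comparisons of ES with iPSC using only those stages, and daily courses with a system left out, were not run because no residual degrees of freedom remain. Each system was 1 library a stage, and depth limits values under about 1 FPKM.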

Other observations

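Entpd1, the ectonucleotidase upstream of Nt5e, was at 1.12 FPKM in the library labelled OSK+cMyc and 0.0632 FPKM in that labelled cMyc, against 65.6 FPKM in that labelled OSK. Tek, a receptor of endothelial cells, was at 14.7 FPKM in the library labelled OSK+cMyc and 0.263 FPKM in that labelled cMyc, against 30.6 FPKM in that labelled OSK. Fut9 reached its highest course value in Gatad2a-/- on day 7, at 12.9 FPKM, and in Mbd3f/- on day 6, at 3.09 FPKM.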
